A study of Mus musculus with 9 samples.

Results

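The genes described here are the 7 classical inhibitors of cyclin-dependent kinases (CDKs), Cdkn1a, Cdkn1b and Cdkn1c of the CIP/KIP family and Cdkn2a, Cdkn2b, Cdkn2c and Cdkn2d of the INK4 family. They were found by symbol among the probe sets whose platform annotation holds exactly 1 symbol, which gave 9 probe sets for 7 genes, of 22690 probe sets on the array and 12393 genes. CIP/KIP had 5 probe sets for 3 genes, and INK4 had 4 probe sets for 4 genes.

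Expression was measured on 9 one-colour Affymetrix arrays, 3 from butyrate-treated, 3 from trichostatin A (TSA)-treated and 3 from untreated dendritic cells (DC). All cells came from spleens of mice aged 6 to 8 weeks that carried B16 melanoma tumours made to express Flt3L, the growth factor that expands DC in these animals, and were selected on CD11c magnetic beads. Butyrate, a short-chain fatty acid, and TSA, a hydroxamic acid, both inhibit histone deacetylases (HDACs), and the series asks how this changes gene expression in DC. The labels give no strain, dose or duration, and nothing in them tells whether the 3 arrays per condition are separate animals, so the p-values measure the spread between these arrays, which may be technical.

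CDK inhibitors hold back the cell cycle by 2 routes. INK4 proteins bind CDK4 and CDK6 and keep them from D-type cyclins, while CIP/KIP proteins bind assembled cyclin-CDK complexes, above all those of CDK2, and can also help cyclin D and CDK4 assemble. Both routes end at the retinoblastoma protein and its relatives, which release E2F transcription factors once CDKs phosphorylate them. Cdkn1a is a classical target of p53, and in many tumour cell lines HDAC inhibitors raise its RNA. DC arise from dividing precursors and largely leave the cycle as they mature.

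HDACs act on chromatin at start regions, and those of 3 members, chosen after their values were seen, are shown: Cdkn2b, the member with the largest fall, Cdkn1a, which was lower with both treatments, and Cdkn2d, which was higher with butyrate. The Cdkn1a fall with butyrate and the Cdkn2d rise depended on how the arrays were scaled, as given below. Each line gives the 250 bases before a RefSeq start site (GRCm38.p6), 5′ to 3′ on the strand of the gene, in lower case. The downstream Cdkn1a start and the Cdkn2d start lie inside the annotated spans of their genes. Most of the Cdkn2d region overlaps that span, which is 21288459 to 21291421 on chromosome 9. Capitals mark GGGCGG, the core of the GC box bound by Sp1-type factors, on either strand, and in the upstream Cdkn1a region a pair of p53-type CATG cores with 6 bases between them.
Cdkn1a, upstream start, chr17:29090729-29090978, plus strand: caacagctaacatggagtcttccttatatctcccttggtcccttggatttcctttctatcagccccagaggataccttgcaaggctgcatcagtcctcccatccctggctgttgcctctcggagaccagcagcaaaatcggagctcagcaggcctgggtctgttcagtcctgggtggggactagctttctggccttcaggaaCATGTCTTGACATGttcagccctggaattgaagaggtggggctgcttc
Cdkn1a, downstream start, chr17:29093519-29093768, plus strand: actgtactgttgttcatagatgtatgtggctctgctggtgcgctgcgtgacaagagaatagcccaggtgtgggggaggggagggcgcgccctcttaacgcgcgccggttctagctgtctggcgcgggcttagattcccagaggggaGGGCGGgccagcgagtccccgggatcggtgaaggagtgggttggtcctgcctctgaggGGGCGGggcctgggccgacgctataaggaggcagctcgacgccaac
Cdkn2b, chr4:89311033-89311282, minus strand: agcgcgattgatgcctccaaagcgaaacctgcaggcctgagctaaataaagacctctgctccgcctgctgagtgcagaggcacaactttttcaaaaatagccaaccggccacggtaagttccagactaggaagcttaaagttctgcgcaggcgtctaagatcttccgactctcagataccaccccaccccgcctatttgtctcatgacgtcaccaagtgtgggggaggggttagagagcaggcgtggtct
Cdkn2d, chr9:21291210-21291459, minus strand: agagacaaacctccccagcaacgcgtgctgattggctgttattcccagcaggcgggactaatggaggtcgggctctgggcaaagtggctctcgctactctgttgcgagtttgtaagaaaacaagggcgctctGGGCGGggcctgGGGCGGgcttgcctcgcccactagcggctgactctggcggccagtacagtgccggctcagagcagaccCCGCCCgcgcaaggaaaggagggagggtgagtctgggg
The table held 9 start sites of 6 members. GGGCGG was present in 5 of the 9, against 32.7% of 32851 start regions of the same length: 2 copies at the downstream start of Cdkn1a, 1 at Cdkn1b, 2 at a start of Cdkn2a, 3 at a start of Cdkn2c and 3 at Cdkn2d. The Cdkn2b region held 0 copies. The p53-type pair lay 48 to 35 bases before the upstream Cdkn1a start and in 0 other member regions, against 0.49% of all regions. This spacing was looked for after the sequences had been seen, since the pair with 10 bases between the cores that was written down at first, found in 0 member regions and 0.463% of all, is not the usual p53 spacing. The TATA box letters TATAAA were in 0 member regions and 12.4% of all. A match of letters is a description and not a bound site, and binding was not measured here.

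The preparation carried DC markers at high levels: H2-Ab1, a class II antigen-presenting chain, averaged 13.89 log2 units in butyrate, 14.09 in TSA and 13.98 in untreated samples, Flt3 10.39, 10.43 and 11.02 in the same order, and Itgax, which encodes CD11c, 8.50, 8.25 and 9.24. Of the 10 DC markers, 2 rose and 5 fell with butyrate, and 0 rose and 6 fell with TSA. Over all genes, 32.6% rose and 24.5% fell with butyrate, and 25.8% rose and 20.5% fell with TSA. Macrophage and monocyte markers fell in 8 of 8 cases with each treatment, and their summed level on the linear scale was 6233 to 6612 in butyrate, 6524 to 7270 in TSA and 10340 to 10750 in untreated samples. The summed NK cell markers were 1059 to 1140 in butyrate, 1695 to 1979 in TSA and 3024 to 3208 in untreated samples, and the summed T cell markers 574 to 588, 517.1 to 563 and 818.6 to 942.4 in the same order. Neutrophil markers were bright too, with sums of 36420 to 36960 in butyrate, 30120 to 31460 in TSA and 37770 to 38610 in untreated samples. In the same order, the summed B cell markers were 8302 to 8729, 7506 to 7784 and 7884 to 9012. The summed erythroid markers were 5707 to 5928, 4830 to 4911 and 7326 to 7927. Of 8 neutrophil markers butyrate raised 3 and lowered 4 and TSA lowered 5, 2 of 7 B cell markers fell with butyrate and 3 with TSA, and 2 of 6 T cell markers fell with butyrate and 3 with TSA. Among 6 NK cell markers 2 fell and 1 rose with butyrate and 3 fell with TSA, and among 6 erythroid markers 4 fell and 1 rose with butyrate and 5 fell with TSA. Of 7 B16 melanoma markers 2 rose and 1 fell with butyrate and 1 rose and 1 fell with TSA, and the pigment genes Tyr, Tyrp1 and Dct averaged under 5 log2 units, near the floor of the arrays, in all 3 groups. RNA integrity, read from the 3′ minus 5′ signal of beta-actin, gave 0.682 ± 0.040 log2 units in butyrate, 0.641 ± 0.042 in TSA and 0.432 ± 0.066 in untreated samples (SD, n = 3 each). The same signal of Gapdh differed less, at 0.224 ± 0.037, 0.192 ± 0.025 and 0.159 ± 0.014 in the same order. In these bulk samples, fewer cells of a type and less RNA per cell cannot be told apart, and the part of cell composition and RNA integrity in the results that follow was not tested.

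Cdkn2b, which encodes the INK4 protein p15INK4b and is known as a target of TGF-beta signalling, showed the largest change of any member. Its level was 6.20, 6.33 and 6.59 log2 units on the butyrate arrays, 6.82, 6.85 and 6.82 on the TSA arrays, and 9.15, 9.21 and 9.18 on the untreated arrays. No treated array came within 2 log2 units of an untreated one, and the TSA arrays lay above all butyrate arrays. Groups whose arrays do not overlap were common, at 51.6% of all probe sets for TSA against untreated, 59.3% for butyrate against untreated and 46.3% for butyrate against TSA. With TSA the RNA fell 5.11-fold (log2 difference −2.35 ± 0.085, limma's standard error, n = 3 per group; adjusted p = 3.53e-08). Butyrate samples were 7.0-fold lower than untreated samples (−2.81 ± 0.085, limma adjusted p = 7.85e-09), and the direct difference of butyrate from TSA was −0.45 ± 0.085 (limma adjusted p = 0.00347). Among the 12393 genes, each taken by its brightest probe set, 33 fell further with TSA and 32 with butyrate. At-least-2-fold falls were seen in 3.28% of genes with TSA and 4.6% with butyrate. Values of RMA, the authors' normalization, are compressed for dim probe sets, so the fold of a gene that ends near the middle of the array may be understated. The difference of butyrate from TSA was −0.85 with arrays shifted to equal hybridization spike-ins and −0.73 with equal poly-A spike-ins, 2 sets of control transcripts added to the samples. The summed macrophage and monocyte, NK cell and T cell markers given above were also lower in both treated groups. So were the summed DC, neutrophil, erythroid and B16 melanoma markers, while the B cell sum of butyrate samples overlapped that of untreated samples. The NK cell and DC sums had the same order over the 3 groups as Cdkn2b. The DC sum was 67550 to 68600 in butyrate, 69660 to 71160 in TSA and 77570 to 79250 in untreated samples.

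**Figure D1:**
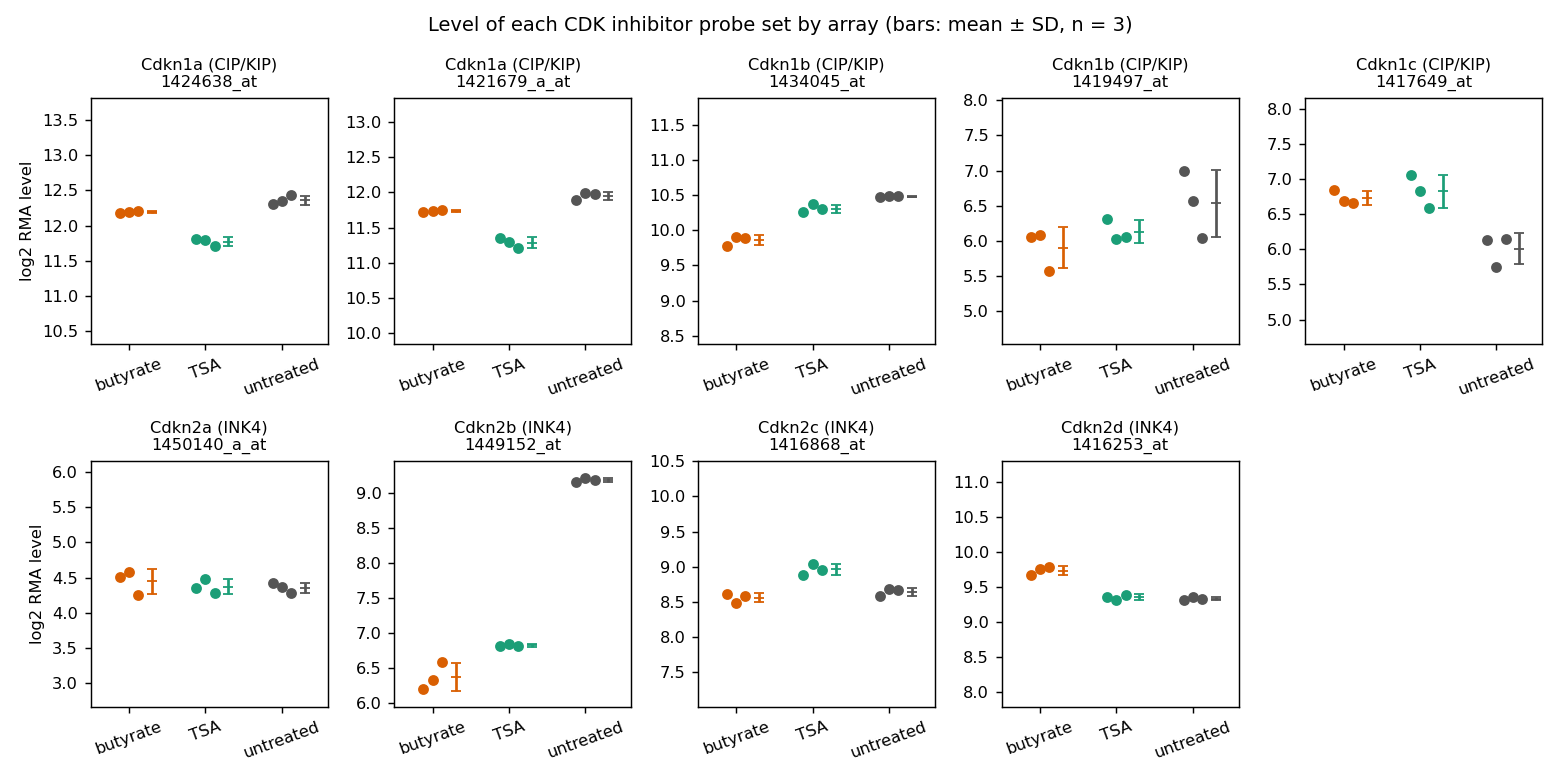
Log2 RMA level (vertical axis, a window of 3.5 log2 units in each panel) of the 9 CDK inhibitor probe sets on each array; points are arrays and bars the mean ± SD of 3 arrays in butyrate, TSA and untreated samples. Cdkn2b stands at 6.20 to 6.59 with butyrate and 6.82 to 6.85 with TSA, against 9.15 to 9.21 in untreated samples, while the arrays of Cdkn2a overlap in all groups.

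Of the other INK4 genes, Cdkn2c and Cdkn2d were not called lower with either treatment in the deposited values, and Cdkn2a was too dim to show a fall. Cdkn2a lies next to Cdkn2b on chromosome 4, at 89274473 to 89294619 against 89306289 to 89311032 for Cdkn2b. It encodes both p16INK4a and, in another reading frame, p19ARF, which stabilises p53. The Cdkn2a probe set gave 4.51, 4.58 and 4.25 log2 units with butyrate, 4.35, 4.48 and 4.28 with TSA, and 4.43, 4.36 and 4.28 in untreated samples. All arrays overlapped, and about 14 in 100 probe sets were dimmer than this one in each group (13.9%, 13.7% and 13.8%), so a change of this RNA could not be detected here unless it left the floor. The differences from untreated samples were 0.09 with butyrate (95% interval −0.11 to 0.29, limma adjusted p = 0.433) and 0.02 with TSA (−0.19 to 0.22, adjusted p = 0.916).

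Cdkn2c, which encodes p18INK4c and restrains division in lymphoid cells, was higher with TSA. It stood at 8.89, 9.04 and 8.96 log2 units in TSA samples, against 8.58, 8.68 and 8.67 in untreated samples, with no overlap (0.32 ± 0.060, 1.25-fold, limma adjusted p = 0.00144). This call was lost on arrays scaled to equal poly-A spike-ins (0.306, adjusted p = 0.191), which vary more between arrays. With butyrate the levels were 8.62, 8.48 and 8.58, which overlap the untreated ones (−0.08, 95% interval −0.22 to 0.05, adjusted p = 0.276). The direct difference of butyrate from TSA was −0.40 ± 0.060 (limma adjusted p = 0.000975), and it was −0.80 with equal hybridization and −0.67 with equal poly-A spike-ins.

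Cdkn2d, which encodes p19INK4d, was instead higher with butyrate. Butyrate arrays gave 9.67, 9.75 and 9.78 log2 units, TSA arrays 9.36, 9.31 and 9.39, and untreated arrays 9.32, 9.35 and 9.32, so that butyrate stood apart while TSA and untreated overlapped. The difference of butyrate from untreated samples was 0.40 ± 0.050 (1.32-fold, limma adjusted p = 7.23e-05), that of TSA 0.02 (95% interval −0.09 to 0.13, adjusted p = 0.769), and that of butyrate from TSA 0.38 ± 0.050 (adjusted p = 0.000486). The rise with butyrate depends on the scale of the arrays. The 7 hybridization spike-in probe sets, bacterial transcripts added to the labelled sample, averaged 10.78 ± 0.063 log2 units on butyrate, 10.38 ± 0.030 on TSA and 10.365 ± 0.075 on untreated arrays (SD, n = 3 each). With arrays shifted to equal spike-ins the median change of all probe sets with butyrate turned to −0.341 from 0.074, and Cdkn2d was not called (−0.01 against untreated, adjusted p = 0.892, and −0.02 against TSA, adjusted p = 0.82). With equal poly-A spike-ins it was not called either (0.12 against untreated, adjusted p = 0.605, and 0.11 against TSA, adjusted p = 0.626). On the hybridization scale Cdkn2c was called lower with butyrate than in untreated samples (−0.50, adjusted p = 0.000145). Values with butyrate are thus relative to the bulk of genes.

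Of the CIP/KIP genes, Cdkn1a was lower with both treatments. It encodes p21CIP1, which binds cyclin-CDK2 complexes and the replication clamp PCNA. The brighter of its 2 probe sets gave 11.81, 11.80 and 11.70 log2 units with TSA, against 12.30, 12.35 and 12.43 in untreated samples. The other gave 11.35, 11.30 and 11.20 with TSA, against 11.89, 11.99 and 11.98. Neither overlapped, and the falls were 1.5-fold (−0.59 ± 0.054, limma adjusted p = 9.73e-06) and 1.59-fold (−0.67 ± 0.054, adjusted p = 4.46e-06). With butyrate the brighter probe set gave 12.17, 12.19 and 12.21 and the other 11.73, 11.74 and 11.76, just under the untreated arrays. These differences were −0.17 ± 0.054 (limma adjusted p = 0.0245) and −0.21 ± 0.054 (adjusted p = 0.00799). They were small and not stable: a further quantile normalization moved them to −0.02 (adjusted p = 0.759) and −0.11 (adjusted p = 0.127), while equal hybridization spike-ins moved them to −0.58 and −0.63 and equal poly-A spike-ins to −0.45 and −0.50. The call of the brighter probe set was also lost without untreated replicate 3 (−0.13, adjusted p = 0.0822), butyrate replicate 1 (−0.16, adjusted p = 0.0702) or butyrate replicate 2 (−0.17, adjusted p = 0.0549). Butyrate samples were higher than TSA samples by 0.42 ± 0.054 and 0.46 ± 0.054 (limma adjusted p = 0.000407 and 0.000281). On arrays with equal hybridization spike-ins these differences were 0.02 and 0.06 (adjusted p = 0.829 and 0.561), and with equal poly-A spike-ins 0.15 and 0.18 (adjusted p = 0.495 and 0.4).

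Cdkn1b, which encodes p27KIP1, a brake that keeps resting cells out of the cycle, was lowest with butyrate. Its brighter probe set gave 9.78, 9.91 and 9.90 log2 units with butyrate, 10.26, 10.37 and 10.30 with TSA, and 10.47, 10.48 and 10.49 in untreated samples, and the 3 groups did not overlap. With butyrate it was 1.54-fold lower than in untreated samples (−0.62 ± 0.053, limma adjusted p = 5.05e-06) and −0.45 ± 0.053 from TSA (adjusted p = 0.000275). These differences were −1.03 and −0.85 on the hybridization spike-in scale and −0.90 and −0.72 on the poly-A scale. The difference of TSA from untreated samples was small (−0.17 ± 0.053, limma adjusted p = 0.0234). It lost its call without untreated replicate 2 (−0.17, adjusted p = 0.0574), untreated replicate 3 (−0.17, adjusted p = 0.0547), TSA replicate 1 (−0.15, adjusted p = 0.0842) or TSA replicate 3 (−0.17, adjusted p = 0.0645), and with equal hybridization (adjusted p = 0.119) or poly-A (adjusted p = 0.555) spike-ins. The dimmer probe set varied widely within groups, at 6.06, 6.08 and 5.57 with butyrate, 6.31, 6.02 and 6.05 with TSA, and 6.99, 6.57 and 6.04 in untreated samples. Its arrays overlapped in all comparisons, and its differences were −0.63 ± 0.219 with butyrate (limma adjusted p = 0.0337) and −0.41 ± 0.219 with TSA (adjusted p = 0.174). The butyrate call of this probe set was lost without untreated replicate 1 (−0.40, adjusted p = 0.117), untreated replicate 2 (−0.62, adjusted p = 0.0826) or butyrate replicate 3 (−0.47, adjusted p = 0.117). Without untreated replicate 3 it was also called with TSA (−0.65, adjusted p = 0.0154). On the hybridization scale its differences were −1.05 with butyrate, −0.42 with TSA (adjusted p = 0.0418) and −0.63 between butyrate and TSA (adjusted p = 0.00175), and on the poly-A scale −0.92, −0.42 (adjusted p = 0.0434) and −0.50 (adjusted p = 0.0139).

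Cdkn1c was the CIP/KIP gene that rose with both treatments. It encodes p57KIP2, which is imprinted and best known from tissues that leave the cycle during development. Levels were 6.85, 6.69 and 6.66 log2 units with butyrate, 7.06, 6.83 and 6.58 with TSA, and 6.13, 5.75 and 6.14 in untreated samples. All treated arrays lay above all untreated ones, and butyrate and TSA overlapped. The rise was 1.76-fold with TSA (0.81 ± 0.133, limma adjusted p = 0.000594) and 1.65-fold with butyrate (0.72 ± 0.133, adjusted p = 0.00114). With butyrate it was 0.31 on arrays with equal hybridization spike-ins (adjusted p = 0.0184) and 0.44 with equal poly-A spike-ins (adjusted p = 0.0232). The difference of butyrate from TSA was −0.09 (95% interval −0.39 to 0.21, limma adjusted p = 0.639), and it was −0.49 on the hybridization scale (adjusted p = 0.000746) and −0.36 on the poly-A scale (adjusted p = 0.085). Its level lay near the middle of the arrays, with 40.7% of probe sets dimmer in untreated samples, and 468 genes rose further with TSA and 712 with butyrate.

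**Figure D2:**
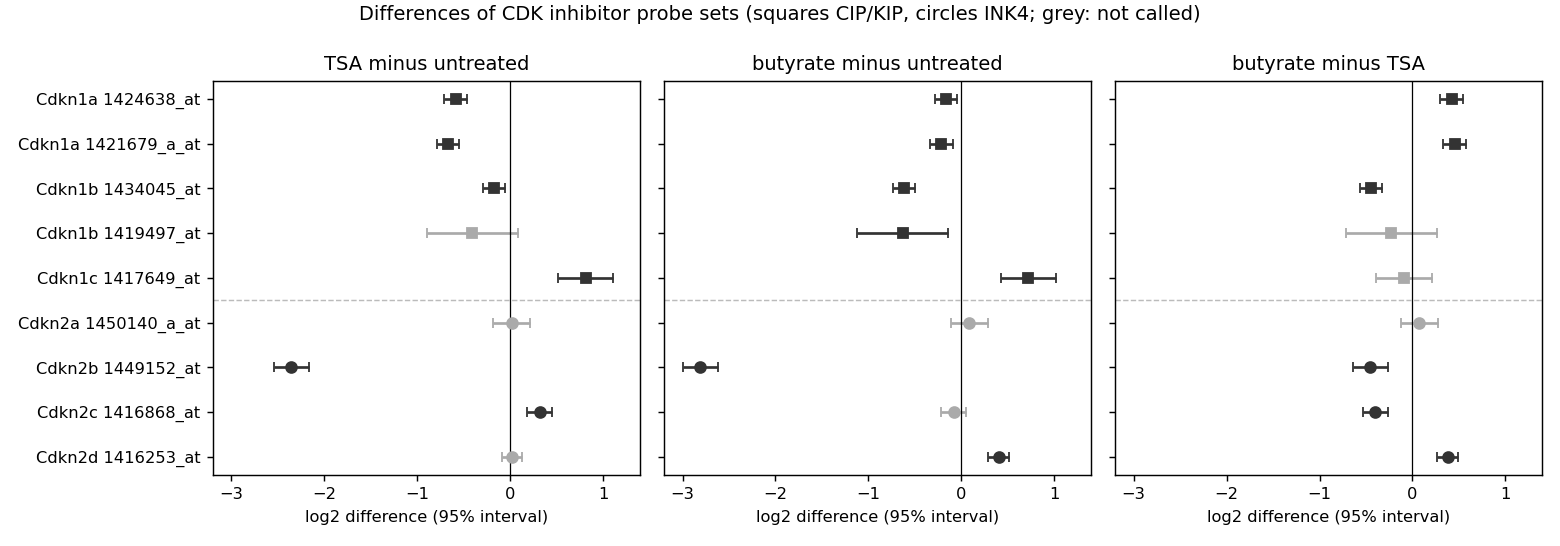
Log2 difference with its 95% interval (horizontal axis) of the 9 probe sets in the 3 comparisons; squares are CIP/KIP and circles INK4 probe sets, and grey marks those not called at an adjusted p under 0.05. Cdkn2b is the lowest point against untreated samples at −2.35 with TSA and −2.81 with butyrate, and Cdkn1c is the highest at 0.81 and 0.72.

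Set side by side, neither family moved as a block. With TSA, 1 CIP/KIP probe set of 5 rose and 3 fell (median log2 difference −0.41), and 1 INK4 probe set of 4 rose and 1 fell (median 0.02), where 23.5% of all probe sets rose and 19.4% fell. With butyrate, 1 of 5 CIP/KIP probe sets rose and 4 fell (median −0.21), and 1 of 4 INK4 probe sets rose and 1 fell (median 0.0033), where 30.4% of all rose and 23.2% fell. The INK4 counts and medians include Cdkn2a, whose probe set lay near the floor and could not show a fall. Over all 22626 probe sets the median was 0.025 with TSA and 0.074 with butyrate. In all, 6 of the 9 probe sets were called with TSA, where 42.9% of all probe sets were called, and 7 of 9 with butyrate, where 53.6% were. Between butyrate and TSA 6 of 9 were called, 3 in each direction, against 29.6% of all (12.6% higher and 17% lower). Counted by gene, 5 of 7 were called with each treatment and 5 of 7 between the treatments, against 46.3% with TSA, 57.2% with butyrate and 33.3% between them over the 12393 genes. By direction, 25.8% of genes rose and 20.5% fell with TSA, 32.6% rose and 24.5% fell with butyrate, and 14.2% were higher and 19.1% lower in butyrate than in TSA samples. INK4 genes spanned −2.35 to 0.32 with TSA and −2.81 to 0.40 with butyrate, and CIP/KIP genes −0.59 to 0.81 and −0.62 to 0.72. Both treatments are set against the same untreated arrays, so their changes are not independent. Levels of different genes were not compared, since probe sets differ in how brightly they report.

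**Figure D3:**
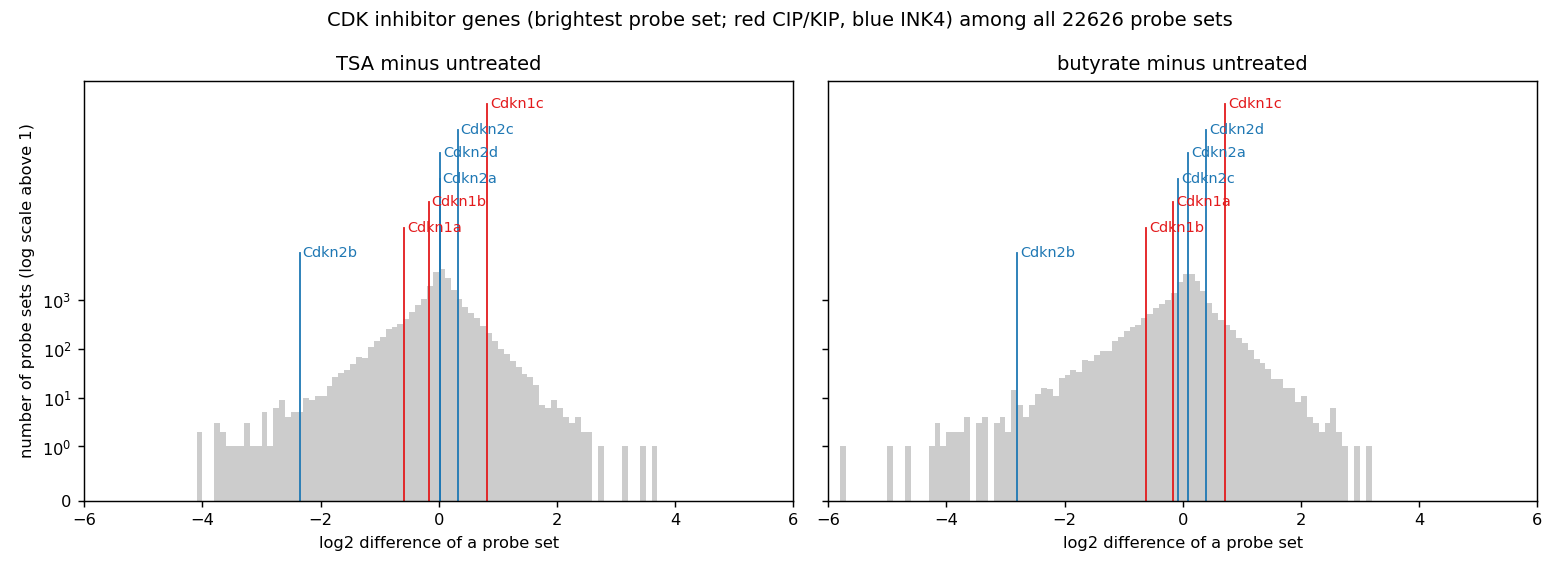
Number of probe sets (vertical axis, log scale above 1) by log2 difference (horizontal axis, bins of 0.1) with TSA and with butyrate against untreated samples; lines mark the brightest probe set of each CDK inhibitor gene, red for CIP/KIP and blue for INK4, and line height carries no value. Cdkn2b lies in the left tail in both panels, and the other members lie between −0.62 and 0.81.

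Genes with the most similar course over the 9 arrays were found by the root mean square difference of log2 levels after setting each gene's untreated mean to 0. Nearest to Cdkn2b was Nqo1, a quinone reductase, at 0.0826 log2 units, then Gtf2a1, a subunit of the general transcription factor TFIIA, at 0.13 and Gbp2, an interferon-inducible GTPase, at 0.149. Within 0.2 of Cdkn2b lay 5 genes. Few genes changed as much, with 33 falling further with TSA and 32 with butyrate, so this count goes with the size of its fall. Nearest to Cdkn1a were Aif1 (0.0511), Pmaip1 (0.0591), which encodes the p53-induced death factor NOXA, and the potassium channel gene Kcnn4 (0.0682). Tmem167 (0.0451), the decapping gene Dcp1a (0.0472) and the cytokine gene Clcf1 (0.0523) were nearest to Cdkn1b, and Mllt3 (0.127), Tspan4 (0.132) and Homer2 (0.135) to Cdkn1c. For these members 421, 786 and 153 genes lay within 0.2, so such a course was common.

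Turning to the kinases that INK4 proteins inhibit, Cdk4 was higher with both treatments while Cdk6 was dim and not called. Cdk4 averaged 9.36 ± 0.014 log2 units with TSA, against 8.16 ± 0.158 in untreated samples (SD, n = 3), a 2.29-fold rise (1.19 ± 0.073, limma adjusted p = 6.53e-07), and it was 1.91-fold higher with butyrate (adjusted p = 2.74e-06). Cdk6 differed by 0.16 with TSA (limma adjusted p = 0.302) and 0.08 with butyrate (adjusted p = 0.568). Of the D-type cyclins, Ccnd3 rose by 0.54 ± 0.075 with TSA and 0.99 ± 0.075 with butyrate. Ccnd2 was 2.03-fold higher with butyrate (1.02 ± 0.074, adjusted p = 1.51e-06) and differed by −0.08 with TSA (adjusted p = 0.431), with a tested difference of 1.10 between butyrate and TSA (adjusted p = 1.76e-05). Ccnd1 was just called lower with TSA (−0.16, limma adjusted p = 0.046) and not with butyrate (−0.01, adjusted p = 0.899). Of these 5 genes, then, 2 rose and 1 fell with TSA and 3 rose with butyrate. For this and the later lists, the shares over all genes were 25.8% higher and 20.5% lower with TSA. With butyrate they were 32.6% higher and 24.5% lower. The fall of Ccnd1, the 1 fall on this list, was lost with 7 of the 9 arrays left out in turn (all but untreated replicate 1 and butyrate replicate 3). The fall of Ccnd1 was also not called on either spike-in scale. With butyrate on the hybridization scale, 3 of the 5 rose and 2 fell.

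Cdk2, the kinase that CIP/KIP proteins inhibit, rose by 0.68 ± 0.064 with TSA and 0.65 ± 0.064 with butyrate (limma adjusted p = 1.27e-05 and 1.37e-05). Its partner Ccne1 was not called (0.18, adjusted p = 0.124, and 0.12, adjusted p = 0.256). Of 7 genes of CDK2, CDK1 and their cyclins, 1 rose and 3 fell with TSA and 1 rose and 2 fell with butyrate. The falls were of cyclins and the kinase that act late in the cycle: Ccnb2 fell by 0.44 ± 0.054 with TSA and by 0.34 ± 0.054 with butyrate, Ccna2 by 0.31 and 0.37, and Cdk1 by 0.20 with TSA. A second rise was called with butyrate when butyrate replicate 3 was left out, and on the hybridization scale 6 of the 7 fell with butyrate. On the poly-A scale 1 rose and 1 fell with TSA, and 0 rose and 3 fell with butyrate. Of 8 genes of the CDK-activating kinase and the CDC25 and WEE1 switches, 3 rose and 0 fell with TSA, and 3 rose and 3 fell with butyrate, where the hybridization scale gave 1 and 4 and the poly-A scale 1 and 3. Ccnh, a cyclin of the activating kinase, rose by 1.22 ± 0.058 with TSA and 1.0 ± 0.058 with butyrate, and the phosphatase gene Cdc25a by 0.71 and 0.44. A dimmer Cdc25a probe set rose by 0.59 with TSA (limma adjusted p = 0.000206) and was not called with butyrate (0.15, adjusted p = 0.145). Cdk7, the kinase itself, rose by 0.27 with TSA and fell by 0.41 with butyrate, and its partner Mnat1 fell by 0.54 with butyrate.

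Downstream, Rb1 rose by 0.30 ± 0.055 with TSA and 0.34 ± 0.055 with butyrate (limma adjusted p = 0.00115 and 0.000486). Of the 3 pocket protein genes 1 rose and 1 fell with each treatment, Rbl1 falling by 0.27 with TSA and Rbl2 by 0.20 with butyrate. A dimmer Rbl1 probe set fell by 0.78 with TSA and by 1.02 with butyrate (limma adjusted p = 9.72e-05 and 1.14e-05). A dimmer Rbl2 probe set fell by 0.40 with butyrate (adjusted p = 0.00132) and was not called with TSA (0.07, adjusted p = 0.545). Counted by brightest probe sets, the fall of Rbl2 was lost without butyrate replicate 1 or untreated replicate 2. A second rise was called with TSA without untreated replicate 2. With butyrate 0 rose and 2 fell on the hybridization scale and 0 rose and 1 fell on the poly-A scale, and with TSA 0 rose and 0 fell on the poly-A scale, so the rise of Rb1 depends on the scale of the arrays. Of 7 E2F and DP genes 2 rose and 1 fell with TSA and 3 rose and 1 fell with butyrate; E2f5 rose by 0.69 with TSA and E2f8, a repressive member, fell by 0.56 with TSA and by 0.38 with butyrate. Without untreated replicate 1 there were 2 falls with butyrate, and on the hybridization scale 0 rose and 5 fell. On the poly-A scale 0 rose and 2 fell with butyrate, and 1 rose and 1 fell with TSA. Of 23 replication and mitosis genes that E2F factors drive, TSA raised 9 and lowered 9, and butyrate raised 8 and lowered 9 (2 and 17 on the hybridization scale, 2 and 9 on the poly-A scale). With TSA the poly-A scale gave 3 rises and 2 falls. Genes that license replication did not move as 1 group. Mcm6 rose by 0.88 ± 0.054 and 0.57 ± 0.054 with TSA and butyrate, Cdt1 by 0.71 and 0.77, Mcm2 by 0.63 and 0.58, and Cdc6 by 0.42 and 1.13. In contrast, Mcm4 rose by 0.23 with TSA and fell by 0.19 with butyrate, Mcm5 differed by 0.11 with TSA (limma adjusted p = 0.272) and fell by 0.20 with butyrate, and Mcm3 rose by 0.29 with TSA and differed by −0.05 with butyrate (adjusted p = 0.404). Mki67, the proliferation marker Ki-67, fell by 0.55 ± 0.044 with TSA and by 0.65 ± 0.044 with butyrate (limma adjusted p = 4.23e-06 and 1.05e-06), and the mitotic kinase Plk1 by 0.37 and 0.50. Mitosis genes on this list went both ways. Aurka fell by 0.37 and 0.36 and Cdc20 by 0.25 and 0.30 with TSA and butyrate, whereas Bub1 rose by 0.41 and 0.51. Birc5 rose by 0.40 with butyrate and was not called with TSA (−0.01, limma adjusted p = 0.917).

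**Figure D4:**
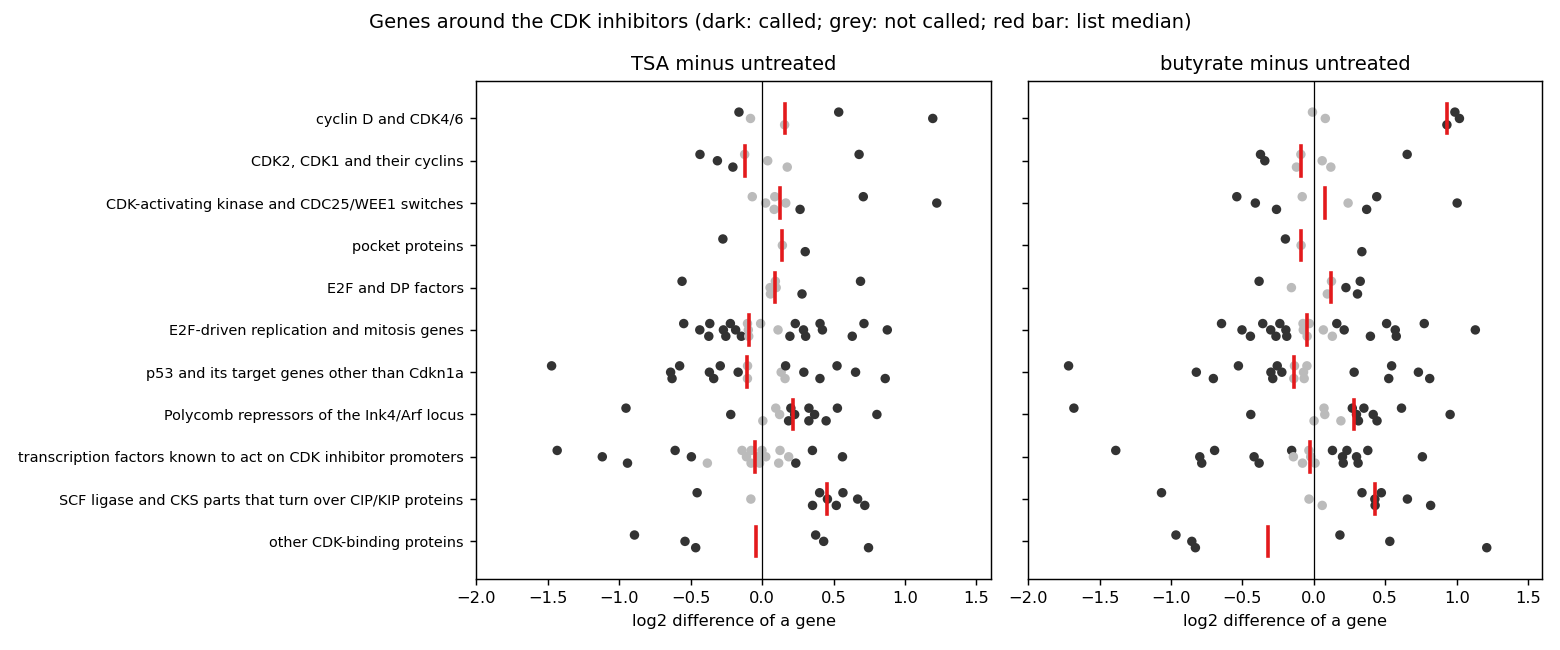
Log2 difference (horizontal axis) of each measured gene of 11 lists around the CDK inhibitors, with TSA and with butyrate against untreated samples; each point is a gene, dark where called and grey where not, and the red bar is the list median. The SCF and CKS list has the highest median with TSA, 0.457, and the cyclin D and CDK4/6 list with butyrate, 0.931.

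Upstream of Cdkn1a, p53 targets went both ways. Trp53 itself was not analysed here. Of 18 measured genes on the p53 list, TSA raised 6 and lowered 8, and butyrate raised 5 and lowered 8. Mdm2, the p53 ligase whose gene is a p53 target, fell by 0.37 ± 0.046 with TSA and by 0.70 ± 0.046 with butyrate. The kinase gene Plk2 fell by 1.47 ± 0.101 and 1.72 ± 0.101, Pmaip1 by 0.63 and 0.22, Gadd45a by 0.64 and 0.26, and Phlda3 by 0.58 and 0.82 with TSA and butyrate. Rises were seen in Zmat3 (0.86 and 0.28), Sesn1 (0.65 and 0.73) and the antiproliferative gene Btg2 (0.40 and 0.81). With TSA there were 5 falls without TSA replicate 1 or without untreated replicate 2, and with butyrate the hybridization scale gave 2 rises and 13 falls. On the poly-A scale there were 3 rises and 4 falls with TSA and 2 rises and 10 falls with butyrate. List medians were −0.10 with TSA and −0.14 with butyrate, against 0.03 and 0.08 over all genes.

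Polycomb proteins repress the Cdkn2a and Cdkn2b locus in many cell types. The list drawn up for them is not of repressors alone, since it also names Kdm6b, which encodes a demethylase that opposes them. Of 14 measured genes, 9 rose and 2 fell with TSA and 8 rose and 2 fell with butyrate (1 and 6 on the hybridization scale, 1 and 2 on the poly-A scale), with medians of 0.21 and 0.28. With TSA the poly-A scale gave 3 rises and 1 fall. Bmi1, the core subunit best known as an Ink4a repressor, fell by 0.95 ± 0.072 with TSA and by 1.68 ± 0.072 with butyrate (limma adjusted p = 2.67e-06 and 4.82e-08). Its other probe set also fell, by 0.73 and 1.53. Cbx2 rose by 0.80 and 0.95, Rnf2 by 0.53 and 0.42, and Kdm2b by 0.45 and 0.61 with TSA and butyrate. Eed fell by 0.22 and 0.44 in its brightest probe set and rose in a dim one (0.36 and 0.34), the 1 gene of the 63 on these lists with more than 1 probe set whose probe sets were called in opposite directions.

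Of 20 transcription factor genes known to act on CDK inhibitor promoters, 3 rose and 5 fell with TSA and 8 rose and 7 fell with butyrate. Over all genes 25.8% rose and 20.5% fell with TSA, and 32.6% rose and 24.5% fell with butyrate. Klf6, an activator of Cdkn1a in other settings, fell by 1.43 ± 0.069 with TSA and by 1.39 ± 0.069 with butyrate. Cebpb fell by 1.12 and 0.80, Ets2 by 0.94 and 0.69, and Smad2, a carrier of the TGF-beta signal that induces Cdkn2b, by 0.50 and 0.78. Smad3 and Smad4, also on this list, moved less in their brightest probe sets. With TSA and butyrate Smad3 differed by 0.03 and 0.20, and Smad4 by −0.11 and −0.16. Foxo1, whose relatives drive Cdkn1b, rose by 0.56 and 0.76. Myc, a repressor of Cdkn1a and Cdkn2b, was not called (0.13, limma adjusted p = 0.117, with TSA and −0.02, adjusted p = 0.771, with butyrate). The brightest Sp1 probe set was not called (−0.38 and −0.14, adjusted p = 0.0678 and 0.452), whereas its dimmer one fell by 0.47 and 0.76. The count of rises with butyrate was 4 without butyrate replicate 2 and 5 without untreated replicate 2 or untreated replicate 3, and on the hybridization scale 1 rose and 15 fell. On the poly-A scale 1 rose and 5 fell with TSA and 1 rose and 8 fell with butyrate.

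On the list of ligase and CKS parts linked to the turnover of CIP/KIP proteins, 7 of 9 genes rose with TSA and 6 with butyrate, and 1 fell with each. Skp2, which marks p27KIP1 for destruction, rose by 0.46 ± 0.065 and 0.34 ± 0.065 with TSA and butyrate, its partner Cks1b by 0.57 and 0.65, and Skp1 by 0.67 and 0.43. Fbxw7, which is counted on this list but targets cyclin E, rose by 0.72 and 0.82. Cul1, the scaffold of the same ligase, fell by 0.46 ± 0.052 with TSA and by 1.07 ± 0.052 with butyrate. With butyrate 2 of the 9 rose and 3 fell on the hybridization scale and 1 rose and 1 fell on the poly-A scale. Of 6 other genes for CDK-binding proteins 3 rose and 3 fell with each treatment: Cdk2ap2 rose by 0.74 and 1.21, and Cables1 fell by 0.89 and 0.97, Cdk5rap1 by 0.54 and 0.83, and Cdk2ap1 by 0.47 and 0.85. With butyrate 1 of these 6 rose on each spike-in scale, and 4 fell on the hybridization and 3 on the poly-A scale. Transcript levels do not show how much of any of these proteins was present or active.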

How the data were processed

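The deposited values are log2 expression levels, 1 per probe set and array, and per the submitters' processing notes the authors computed them by RMA. Which software ran RMA, and with which probe set definition, is not stated in the labels. Array medians lay between 6.69 and 6.74, arrays of a group correlated across probe sets with r of 0.9963 to 0.9983, and no arrays were identical. Precision is limited by the 3 arrays per group.

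Names came from the platform annotation, checked by gene identifier against a GRCm38.p6 gene table (20351 of 20380 probe sets with 1 symbol matched, 0 symbols changed). Start-site sequences and coordinates are RefSeq's; Cdkn1c had no entry. The 22626 probe sets that are not controls were fitted over all 9 arrays with group means as coefficients (limma 3.58.1, R 4.3.3), and p-values were adjusted by Benjamini-Hochberg over all of them within a comparison; a call is an adjusted p under 0.05. Genes of the 11 pathway and 8 marker lists were taken by their brightest probe set in that fit. The members, lists and tests were chosen with earlier results of these data known. Named list genes are up to 4 called genes with the largest changes per comparison plus, whatever their value, Ccnd1 to Ccnd3, Cdk4, Cdk6, Cdk2, Ccne1, Rb1, Mdm2, Myc, Skp2, Mki67, and Itgax, Flt3 and H2-Ab1. Plk1, Aurka, Cdc20, Bub1, Birc5, Eed, Sp1, Smad3, Smad4, Mcm3, Mcm4 and Mcm5 fall outside this rule and were chosen after their values were seen. Kdm6b is named without a value. The rule's remaining genes (Tfdp1, Cbx8, Dtl, E2f3, E2f4, Mxd1 and Cks2) are only counted. The 3 nearest genes are given for members changed by at least 0.5, which is how Pmaip1 is named. The fit was tested on simulated data. Alternatives were the unit tested, a filter on dim probe sets, 3 scalings, the variance prior, the arrays fitted, a replicate block, the threshold and leaving out each array.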

Additional observations from a re-analysis of the deposited data

How the results depend on the processing

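Of 471 recomputed member values 427 kept direction and call, 25 lost a call, 8 gained one and 11 changed sign. The sign changes were all small or on spike-in scales. Cdkn2a turned to −0.0069 (TSA) and −0.00097 (butyrate) after a further quantile normalization, −0.33 (butyrate against untreated and against TSA) with equal hybridization spike-ins and −0.197 and −0.20 with equal poly-A spike-ins, and ranged from −0.0404 to 0.0617 with TSA when 1 array was left out. Cdkn2d with butyrate turned to −0.014 against untreated and −0.022 against TSA with equal hybridization spike-ins. Cdkn1c ranged from −0.21 to 0.025 between butyrate and TSA when 1 array was left out. Cdkn2b kept both calls under every alternative run, from −2.37 to −2.33 with TSA and −3.22 to −2.72 with butyrate. Such scalings shift all values of a group, floor values such as those of Cdkn2a included, and the cause of the brighter spike-ins was not tested.

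Counts over all probe sets moved with the scale. With equal hybridization spike-ins 1460 rose and 15505 fell with butyrate, against 6873 and 5254 on the deposited scale, and 143 and 18262 between butyrate and TSA, against 2856 and 3836. With equal poly-A spike-ins 2547 rose and 2658 fell with TSA, against 5313 and 4395; 1304 rose with butyrate, and 91 between butyrate and TSA. Testing 1 probe set per gene, which tests fewer features, gave 3262 higher and 2604 lower with TSA, 4166 and 3075 with butyrate and 2480 lower between them. Leaving out dim probe sets left 4298 higher with butyrate. An adjusted p under 0.01 left 1296 higher and 2425 lower between butyrate and TSA.

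Member counts moved as follows. CIP/KIP falls with butyrate went to 2, against 4, with a further quantile normalization or the 0.01 threshold. With 1 probe set per gene, where only 3 CIP/KIP probe sets are tested, 2 fell, the same as in the main fit counted by gene. CIP/KIP rises went to 0 with TSA and with butyrate without dim probe sets, which removes Cdkn1c. Between butyrate and TSA, CIP/KIP rises were 1 with 1 probe set per gene, again the same as in the main fit counted by gene. They were 0 on both spike-in scales, with 3 falls on the hybridization and 2 on the poly-A scale. INK4 rises were 0 with butyrate and between butyrate and TSA on both spike-in scales and 0 with TSA on the poly-A scale, and INK4 falls with butyrate were 3 on the hybridization scale. Of 792 list counts against untreated samples 68 moved by over 1.5 times, 42 of them on spike-in scales and 17 with 1 array left out.

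Same-numbered replicates did not vary together throughout (correlations of deviations from −0.0978 to 0.325), so the numbers were not taken as pairs. With a replicate block the dimmer Cdkn1b probe set was also called with TSA (−0.41, limma adjusted p = 0.04), and the fall of Ccnd1 with TSA was not called. Cdkn2b kept its values of −2.35 and −2.81 under the block, with limma adjusted p of 7.84e-07 and 2.16e-07.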
